A study of Mus musculus with 8 samples.

Results

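Chromosomes 12, 14 and 18 of the mouse were followed through lists of accessible chromatin regions made by formaldehyde-assisted isolation of regulatory elements with sequencing (FAIRE-seq). They held 3105 of the 37230 regions obtained by merging the peaks of all 8 lists wherever peaks shared at least 1 bp, with 1167 regions on chromosome 12, 968 on chromosome 14 and 970 on chromosome 18. That was 8.34% of the regions on 12.3% of the known sequence. The chromosomes were chosen from the peak lists themselves, because they carried few peaks in one cell line and a larger share in the other. The contrast between the lines is therefore described here without a test, and nothing is inferred from it.

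EpH4 cells are mouse mammary gland epithelial cells, and EpRas cells are their derivative transformed with an oncogenic H-Ras. Each line was left untreated or given 1 ng/ml TGF-β3 for 8 days, and each of the 4 groups had 2 libraries described as biological replicates. EpRas cells are a single transformed derivative, and the lines were grown in medium of different serum content, so transformation, derivation and serum cannot be told apart in the line contrast. Whether replicates came from separate cultures was not stated beyond that word, and p-values measure the spread between these libraries.

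In FAIRE, crosslinked chromatin is sheared and extracted with phenol, and DNA that is not held by nucleosomes stays in the aqueous phase. Promoters of active genes and distal enhancers are the sites usually recovered, and in epithelial cells many distal sites carry the motif of AP-1, the Fos-Jun dimer that acts downstream of Ras signaling. Gene-rich stretches of a chromosome usually hold more such sites than gene deserts. FAIRE recovers genomic DNA, and the lists hold no measure of DNA copy number, so more copies of a chromosome and more open sites on it cannot be told apart from a peak list.

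Sequences of 6 regions on chromosomes 12 and 14 were printed as examples of the call patterns described below. Each is the central 200 bp of a merged region on the forward strand of mm10 (GRCm38.p6), in lower case, and capitals mark the AP-1 consensus TGACTCA or its reverse complement TGAGTCA. The first 4 were called in all 4 EpRas and in 0 EpH4 libraries, the fifth in the 2 TGF-β-treated EpRas libraries alone, and the sixth in all 4 EpH4 and in 0 EpRas libraries. They were picked so that distal sites with the motif can be set beside promoters without it, and are not typical of their patterns. Regions of these patterns in *Arhgap22*, *Dtd2* and *Lats2*, outside promoters, lacked the motif in the central 500 bp and were not printed. The consensus was present in the central 200 bp of 32.2% of all 37230 regions and of 36.1% of the 3105.
Lpin1 side, chr12:16532492-16532691: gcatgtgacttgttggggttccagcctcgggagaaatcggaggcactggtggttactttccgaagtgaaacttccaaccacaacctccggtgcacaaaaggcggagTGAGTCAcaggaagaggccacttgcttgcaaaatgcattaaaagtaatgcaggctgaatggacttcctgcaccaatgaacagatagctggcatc
Rarb side, chr14:16957895-16958094: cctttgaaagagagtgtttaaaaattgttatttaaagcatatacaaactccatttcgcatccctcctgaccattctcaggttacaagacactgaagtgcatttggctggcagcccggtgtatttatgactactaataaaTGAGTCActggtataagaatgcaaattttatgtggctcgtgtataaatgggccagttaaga
Hspa2 promoter, chr12:76404041-76404240: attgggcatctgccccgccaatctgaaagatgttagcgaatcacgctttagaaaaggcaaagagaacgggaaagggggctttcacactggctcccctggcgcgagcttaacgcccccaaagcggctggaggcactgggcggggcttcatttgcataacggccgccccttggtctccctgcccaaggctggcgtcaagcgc
Mrps16 promoter, chr14:20393575-20393774: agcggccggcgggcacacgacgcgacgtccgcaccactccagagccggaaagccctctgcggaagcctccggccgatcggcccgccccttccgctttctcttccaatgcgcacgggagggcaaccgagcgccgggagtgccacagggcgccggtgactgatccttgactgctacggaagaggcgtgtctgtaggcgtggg
Ccser2 side, chr14:36802550-36802749: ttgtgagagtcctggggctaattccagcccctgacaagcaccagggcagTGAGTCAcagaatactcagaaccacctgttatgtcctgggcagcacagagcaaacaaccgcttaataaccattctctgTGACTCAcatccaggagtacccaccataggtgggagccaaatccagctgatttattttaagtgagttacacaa
Gm15218 intron, chr14:45850733-45850932: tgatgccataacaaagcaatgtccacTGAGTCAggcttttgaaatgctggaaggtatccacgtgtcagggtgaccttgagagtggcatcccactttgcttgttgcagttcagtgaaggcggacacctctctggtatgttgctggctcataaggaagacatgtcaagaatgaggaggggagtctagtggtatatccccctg

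The first of these regions lay 57.2 kb downstream of the transcription start site (TSS) of *Lpin1*, which encodes a phosphatidate phosphatase, outside any gene. The second was intergenic, 382 kb upstream of *Rarb*, a retinoic acid receptor gene. The third and the fourth spanned the start sites of *Hspa2*, a member of the Hsp70 chaperone family, and *Mrps16*, a protein of the mitochondrial ribosome. The fifth lay 104 kb downstream of the *Ccser2* TSS and held 2 copies of the motif. The sixth was in an intron of the noncoding gene *Gm15218*.

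The 8 lists ranged from 10821 to 27337 peaks, the longest being the first TGF-β-treated EpRas library, and read depth was unknown. Promoter peaks at epithelial genes were sparse, with *Krt8* called in 5 of 8 libraries, *Krt18* in 3, *Cdh1* in 4 (all EpH4), *Cldn7* in 1 and *Epcam* in 0. Promoters of *Ptprc*, *Cd3e*, *Pecam1* and *Alb*, markers of blood, endothelial and liver cells, were called in 0 of 8.

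Of the 3 chromosomes, chromosome 12 differed most between the lines in its share of the peak lists. It held 1.85% and 2.05% of the peaks of the untreated EpH4 libraries, 1.86% and 1.34% of the treated ones, 3.21% and 3.11% of the untreated EpRas libraries, and 3.5% and 3.28% of the treated ones. All 4 EpRas libraries were above all 4 EpH4 libraries. For chromosome 14 the shares were 1.75% and 1.64%, then 1.77% and 1.34% in EpH4 cells, and 2.37% and 2.12%, then 2.73% and 2.29% in EpRas cells. For chromosome 18 they were 1.55% and 1.92%, then 2.20% and 1.85% in EpH4 cells, and 2.52% and 2.33%, then 2.73% and 2.42% in EpRas cells. The lines did not overlap on these chromosomes either, though on chromosome 18 the first treated EpH4 library came close to the second untreated EpRas library.

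**Figure D1:**
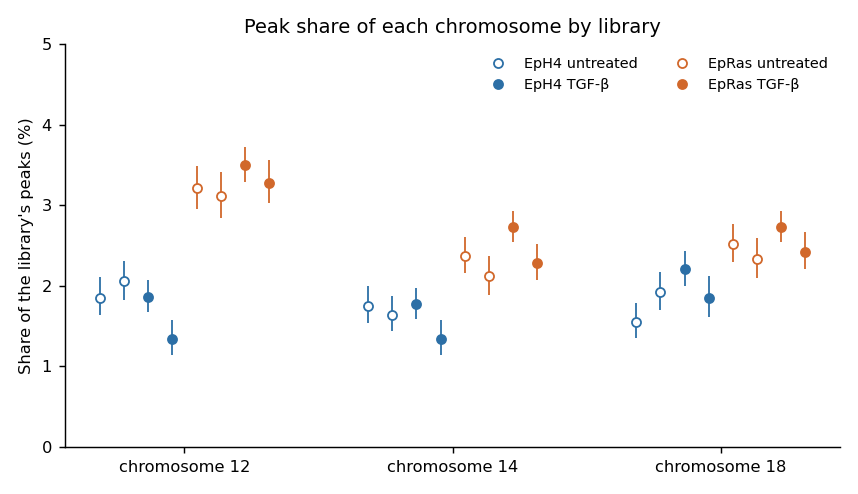
Share of the peaks of each library (y axis, percent of its own list) that lay on chromosomes 12, 14 and 18, with 95% Wilson intervals, which cover counting error within a list only. Blue marks EpH4 and orange EpRas, open circles untreated and filled circles TGF-β-treated libraries. On chromosome 12 the EpH4 libraries lay between 1.34% and 2.05% and the EpRas libraries between 3.11% and 3.5%.

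Taking the 3 chromosomes as one, the share was 5.28% ± 0.58 (SD, n = 4) in EpH4 and 8.15% ± 0.58 (SD, n = 4) in EpRas libraries. The ratio of the mean shares, EpRas to EpH4, was 1.84 for chromosome 12, 1.46 for chromosome 14 and 1.33 for chromosome 18, the 3 highest of 20 chromosomes, and the next was chromosome 2 at 1.3. Shares of all 4 EpRas libraries exceeded those of all 4 EpH4 libraries on 7 of the 20 chromosomes (35.0%), these 3 among them. That order is what the choice of chromosomes used.

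In peaks per Mb of known sequence, the EpH4 libraries averaged 2.09 on chromosome 12, 1.84 on chromosome 14 and 2.97 on chromosome 18. The other autosomes together had 6.14 ± 1.34 (SD, n = 4). The X chromosome had the lowest density of all in both lines, and chromosomes 14, 12 and 18 came next in that order. In EpH4 cells the first chromosomes beyond them were chromosome 7 at 4.55 and chromosome 2 at 4.57. In EpRas cells the densities were 5.32, 3.77 and 5.46, against 8.21 ± 2.49 (SD, n = 4) on the other autosomes.

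The 3 chromosomes differed in gene content. Chromosome 12 had 5.50 protein-coding genes per Mb, the lowest of 20 chromosomes, and chromosome 18 had 5.87, the third lowest. Chromosome 14 had 7.43, the eighth lowest. Per 100 protein-coding genes, chromosome 12 had 38.1 peaks in EpH4 and 96.8 in EpRas cells, and its rank from the bottom moved from 4 to 13. Chromosome 18 had 50.6 and 93.0, and moved from rank 6 to 11. Chromosome 14 had 24.8 and 50.7 and was second from the bottom in both lines, above the X chromosome alone.

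Along each chromosome the peaks followed the genes. Over bins of 10 Mb, peak density averaged over the 8 libraries correlated with protein-coding genes per Mb with Pearson's r of 0.86 on chromosome 12 (12 bins), 0.52 on chromosome 14 (13 bins) and 0.84 on chromosome 18 (9 bins). Spearman's rho was 0.92, 0.63 and 0.53. Over the 236 bins of the other chromosomes r was 0.69 and rho was 0.71. These are descriptions across bins, which share their libraries and are not replicates.

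**Figure D2:**
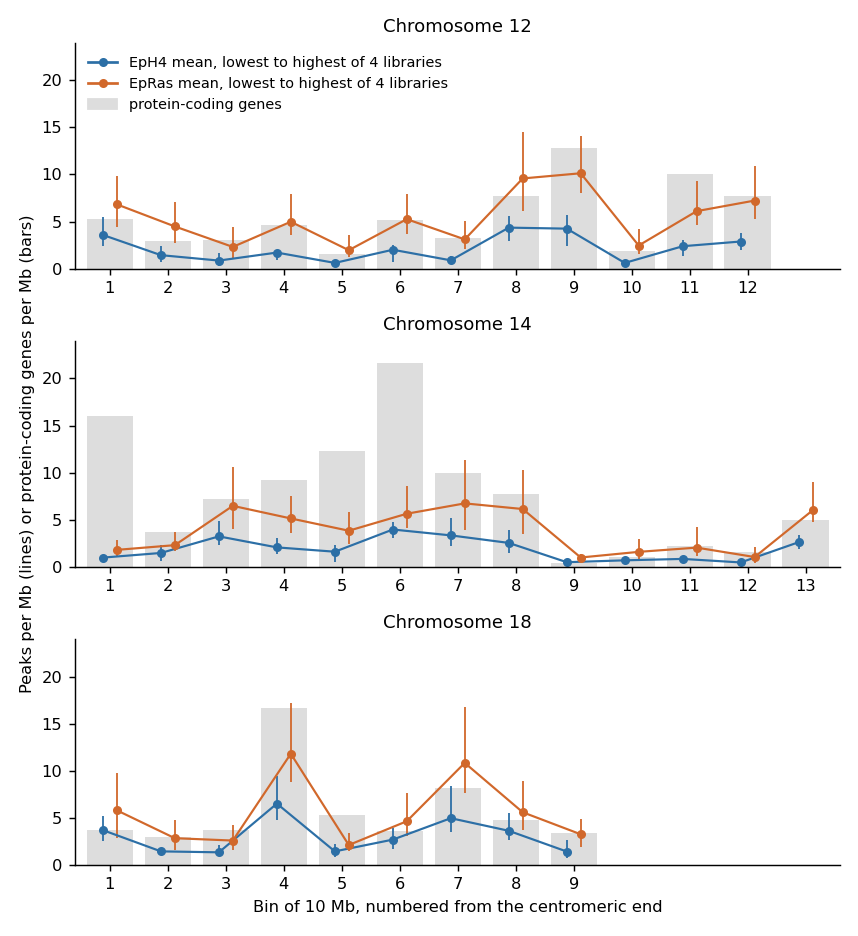
Peaks per Mb of known sequence (lines, mean and range of 4 libraries, blue EpH4 and orange EpRas) and protein-coding genes per Mb (grey bars) in successive 10 Mb bins of each chromosome, numbered on the x axis from the centromeric end. Peaks rose over the gene-rich bins of chromosomes 12 and 18, while the first and sixth bins of chromosome 14, with 16.0 and 21.6 genes per Mb, held few peaks for their genes.

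On chromosome 12 the densest bin by the mean of 8 libraries was 80 to 90 Mb, with 43 and 45 peaks in untreated EpH4, 56 and 24 in treated EpH4, 87 and 79 in untreated EpRas, and 139 and 96 in treated EpRas libraries. It held 127 protein-coding genes, *Fos* among them. In EpH4 libraries alone the bin from 70 to 80 Mb was about as dense, 4.35 against 4.24 peaks per Mb. The sparsest by the mean of 8 libraries was 40 to 50 Mb, with 3 to 9 peaks in EpH4 and 12 to 36 in EpRas libraries and 15 genes. The lines did not overlap in either bin. The last full bin, 110 to 120 Mb, also carries 233 immunoglobulin gene segments, which are silent outside B cells. They are not counted among its 77 protein-coding genes. The bin held 7.23 ± 2.52 peaks per Mb (SD, n = 4) in EpRas libraries.

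Chromosome 14 departed from its genes at 3 bins. The first, 0 to 10 Mb, held 112 protein-coding genes and only 6 and 8, then 9 and 4 peaks in EpH4 libraries, and 11 and 11, then 20 and 8 in EpRas libraries. The bin from 50 to 60 Mb held the most genes of the 34 bins used, 216, of which 34 were olfactory receptor genes, beside 202 T cell receptor segments, families that epithelial cells do not normally express. It had 3.95 ± 0.70 peaks per Mb in EpH4 and 5.62 ± 2.03 in EpRas libraries (SD, n = 4). The bin from 40 to 50 Mb, with 120 genes, had 1.59 ± 0.78 and 3.82 ± 1.56. Without the bin from 50 to 60 Mb, an alternative chosen after seeing the data, r over the bins of all 3 chromosomes was 0.62 in place of 0.57. The long stretch from 80 to 120 Mb, a gene desert with 4 to 22 genes per bin, held 1 to 10 peaks per bin in EpH4 libraries.

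On chromosome 18 the bin from 30 to 40 Mb was the densest of all 34, with 6.50 ± 2.11 peaks per Mb in EpH4 and 11.8 ± 3.77 in EpRas libraries (SD, n = 4). It holds 57 protocadherin genes, cell adhesion genes used chiefly in neurons, and the immediate-early gene *Egr1*. The bin from 60 to 70 Mb had about the same density in EpRas libraries, 10.8 ± 4.09, with 8.20 genes per Mb against 16.7.

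At like gene density the EpH4 lists were thinner on these chromosomes than elsewhere. Among bins with 3.08 to 8.08 genes per Mb, the median density in EpH4 libraries was 2.56 peaks per Mb in the 16 bins of chromosomes 12, 14 and 18 and 4.54 in the 107 bins of the others. In EpRas libraries the medians were 5.42 and 5.98. Peak counts chose the chromosomes, so these medians carry no test.

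**Figure D3:**
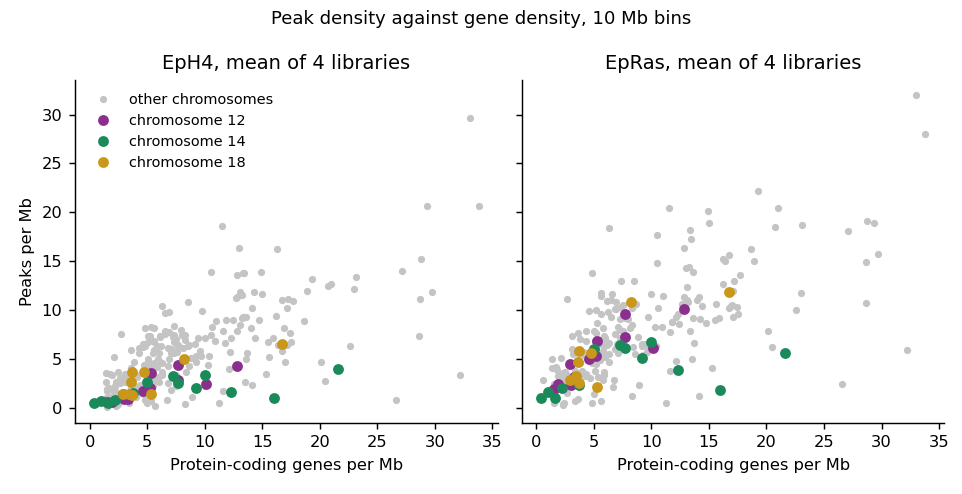
Peaks per Mb (y axis, mean of 4 libraries) against protein-coding genes per Mb (x axis) for 10 Mb bins, EpH4 on the left and EpRas on the right. Coloured points are the 34 bins of chromosomes 12, 14 and 18 and grey points the 236 bins of the other chromosomes. In EpH4 cells many coloured points lay low in the grey cloud, though some lay well inside it. Some grey points, among them bins of the X chromosome, lay lower still. In EpRas cells the coloured points lay higher within the cloud, except for the gene-rich bins of chromosome 14.

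The larger EpRas share was followed bin by bin as a description, because the line contrast chose the chromosomes. The ratio of the mean shares, EpRas to EpH4, was above 1 in 34 of 34 bins, with a median of 1.61, against 109 of 236 bins and a median of 0.97 elsewhere. It ran from 1.41 to 2.82 on chromosome 12, from 1.01 to 1.84 on chromosome 14 and from 1.08 to 1.70 on chromosome 18. The lowest ratio belonged to the bin with the olfactory receptor genes and the highest to the gene-poor bin from 90 to 100 Mb of chromosome 12, where EpH4 libraries had 5, 5, 8 and 6 peaks and EpRas libraries 21, 15, 42 and 20.

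All 4 EpRas shares exceeded all 4 EpH4 shares in 19 of the 34 bins, 11 of 12 on chromosome 12, 6 of 13 on chromosome 14 and 2 of 9 on chromosome 18. Over all 270 bins of the genome the figure was 28.1%. The reverse held in 0 of 34 bins, against 20.7% of all bins. The line contrast is the one that chose the chromosomes, and nothing is read from these counts. Treated and untreated shares separated in 0 of 34 bins in either direction, against 2.96% of all bins with the treated shares above and 1.85% with them below. Each treatment group held both lines, so this separation was impossible in the 19 bins where the lines did not overlap. Nothing on TGF-β is read from this count either.

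Treated and untreated libraries had similar mean shares of peaks on these chromosomes, in a test that could not decide on TGF-β. The share was 6.83% ± 2.01 in treated and 6.61% ± 1.44 in untreated libraries (SD, n = 4), a difference of 0.222 percentage points, two-sided exact permutation p = 0.80 and adjusted p = 0.80 over 6 tests. Within EpH4 cells the difference was -0.199 and within EpRas cells 0.643 points, and the difference between these effects had an exact permutation p of 0.722, in a design of 36 assignments that allows no p under 0.0556 and so could not pass. By chromosome the differences were -0.06 points on chromosome 12, 0.06 on chromosome 14 and 0.22 on chromosome 18, with exact permutation p-values of 0.914, 0.829 and 0.457 and adjusted values of 0.914, 0.872 and 0.762 over 20 chromosomes. Of the 20 chromosomes, 1 (5.00%) had an unadjusted p of 0.05 or less and 0 passed after adjustment. With 4 against 4 libraries the number of assignments allows no p under 0.0286. Labels were permuted across both lines, whose shares did not overlap on these chromosomes. The line difference, which chose the chromosomes, therefore widened the permuted differences and left little room for a small p. These tests cannot decide whether TGF-β moved the shares.

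**Figure D4:**
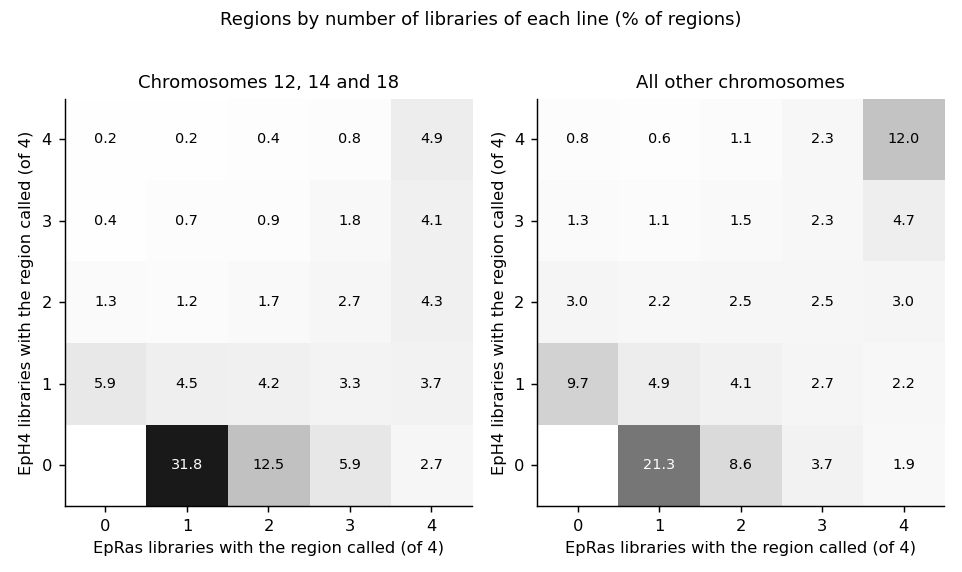
Percent of merged regions by the number of EpRas libraries (x axis) and EpH4 libraries (y axis) in which they were called, for the 3105 regions of chromosomes 12, 14 and 18 (left) and the 34125 regions of all other chromosomes (right). The corner of regions called in all 8 libraries held 4.90% on the left, and the cell of regions called in 1 EpRas library alone 31.8%, against 21.3% on the right.

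Region by region, most of the accessible sites on these chromosomes were found in EpRas cells. Of the 3105 regions, 1644 (52.9%) were called in at least 1 EpRas and in 0 EpH4 libraries, against 36.9% of all 37230 regions. In the reverse direction there were 238 (7.67%), against 14.2%, and 1223 (39.4%) were called in both lines, against 48.9%. The longest list weighed on the first of these counts, since 694 regions were called in the first treated EpRas library and nowhere else. Without counting them 950 regions remained, 30.6% of the 3105, against 21.8% of all 37230 regions. The regions not counted stayed in these totals. On the other chromosomes such single-library regions were 14.5% of regions, and here 22.4%.

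Regions called in all 4 EpRas and in 0 EpH4 libraries numbered 83 (2.67%, against 1.98% of all regions), 43 on chromosome 12, 20 on chromosome 14 and 20 on chromosome 18. The opposite pattern had 5 (0.161%, against 0.752%). Regions called in all 8 libraries numbered 152 (4.90%, against 11.4%). Presence in EpH4 cells was graded: of the 611 regions called in all 4 EpRas libraries, 83, 114, 134, 128 and 152 were called in 0, 1, 2, 3 and 4 EpH4 libraries. The last of these was 24.9% of the 611, while 48.9% of the 8718 such regions of the whole genome were called in all 4 EpH4 libraries. Conversely, of the 200 regions called in all 4 EpH4 libraries, 152 (76%) were called in all 4 EpRas libraries, near the 71.8% of the whole genome.

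These counts depended on which libraries had to agree. Leaving out the second untreated EpRas library raised the 83 to 172, leaving out the first treated EpH4 library raised it to 135, and leaving out the second treated EpRas library to 133. With the same number of peaks from every library it was 29, and with peaks at or above the median score it was 53.

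The 83 EpRas regions lay where regions on these chromosomes generally lay. Promoters, within 2 kb of an annotated TSS, made up 20 (24.1%), introns 29 (34.9%) and intergenic sequence 32 (38.6%), against 29.0%, 35.4% and 34.2% of all 3105 regions. They fell to 78 nearest protein-coding genes, and *Lpin1* and *Flrt2* on chromosome 12, *Arhgap22* on chromosome 14, and *Slc14a1* and *Tshz1* on chromosome 18 were nearest to 2 each. *Flrt2* encodes a membrane adhesion protein, *Arhgap22* a GTPase-activating protein for Rac, *Slc14a1* a urea transporter and *Tshz1* a zinc finger factor.

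Ranked by deposited score (as a percentile of the list, averaged over libraries), the top EpRas region of chromosome 12 was the *Lpin1* site at the percentiles 93.8, 90.0, 85.3 and 93.5. The next was in a coding exon of *Dtd2*, a gene for a D-aminoacyl-tRNA deacylase, and then came the *Hspa2* promoter, with 48.3, 89.0, 94.9 and 54.0. On chromosome 14 the order was an intron of *Arhgap22*, with percentiles of 79.3, 62.3, 70.7 and 71.1, the *Mrps16* promoter and the site far upstream of *Rarb*. On chromosome 18 the top region was in an intron of *E230025N22Rik*, at chr18:36687716-36688033, with 87.0, 82.7, 86.2 and 91.6. The remaining ones were 269 kb downstream of *Tshz1* and in an intron of *Slc14a2*, another urea transporter gene. The lowest percentile of any of these 9 regions in an EpRas list was 18.4, for the *Slc14a2* site in the second untreated library.

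The 5 EpH4 regions lay 454 kb upstream of *Sox11* on chromosome 12, in an intron of *Lats2*, a Hippo pathway kinase gene, and in *Gm15218* on chromosome 14, and in an intron of *Ttc39c* and 47.9 kb upstream of *Megf10* on chromosome 18. Their mean percentiles were 50.9, 37.0, 12.4, 38.2 and 27.3, and 4 of the 5 held the AP-1 consensus in the central 500 bp. Of all distal regions called in at least 1 EpH4 and in 0 EpRas libraries, 66 of 184 (35.9%) held it, against 51.2% of the distal regions on these chromosomes. Leaving out single libraries gave 5 to 12 such regions.

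The highest-scoring regions called in all 8 libraries lay at the top of every list. On chromosome 12 the top 2 were at chr12:97061287-97061917 and chr12:3109722-3110276, far from protein-coding genes, with mean percentiles of 99.99. On chromosome 14 they were a region of 3958 bp over *Gm21738*, the widest of the 3105, with 83.5% of its bases marked as repeats in the reference, and one 23.0 kb downstream of the *Fam107a* TSS. Of the chromosome 12 regions, the second was 63.6% repeat and the first 3.65%. The median region on these chromosomes was 6.80% repeat, and elsewhere it was 7.09%. The second chromosome 12 region and the *Gm21738* region shared a long stretch of identical sequence in their central 200 bp. Whether reads at the top regions mapped to more than 1 place was not tested. The scores of these regions are therefore not shown to measure open chromatin. Below them, *Smad7* was the nearest gene to 3 of the 152 regions, and *Tcf4*, *Vcl*, *Rab10*, *Arhgap22* and 5 other genes to 2 each.

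Promoter calls come from the same peak lists that chose the chromosomes, so they are given as a description without a test. At promoters the contrast between these chromosomes and the rest was large in EpH4 and smaller in EpRas cells. Of their 2058 protein-coding genes, 11.5% and 13.1% had a called promoter in untreated EpH4, 16.8% and 8.16% in treated EpH4, 24.4% and 19.3% in untreated EpRas, and 31.1% and 20.0% in treated EpRas libraries. The lines did not overlap. Of the 19893 genes elsewhere, the values were 23.3%, 24.1%, 29.3% and 20.3% in EpH4 and 30.6%, 25.7%, 36% and 25.8% in EpRas libraries, and the lines overlapped. All 8 libraries called the promoter of 77 genes (3.74%), against 10.6% of all 21951 genes.

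The promoters of 23 genes (1.12%, against 0.574% of all genes) were called in all 4 EpRas and in 0 EpH4 libraries, and the opposite held for 0. On chromosome 12 they included *1110008L16Rik*, *Ppp2r3c*, *Prps1l3*, *Mipol1*, *Hspa2*, *Slc39a9*, *Erh*, *Ptgr2*, *Erg28*, *Ttll5*, *Snw1*, *Nrde2*, *Ifi27* and *Mok*. On chromosome 14 they were *Mrps16*, *Gm49387*, *Btd*, *Hacl1*, *Ankrd28*, *Parp2* and *Dpysl2*, and on chromosome 18 *Sra1* was alone. Several share a promoter, such as *Slc39a9* with *Erh*, *Erg28* with *Ttll5* and *Btd* with *Hacl1*, and each such pair rests on the same peaks. Among them, *Snw1* encodes a splicing and transcription cofactor, *Ppp2r3c* a regulatory subunit of protein phosphatase 2A, *Parp2* a DNA repair enzyme, *Btd* biotinidase and *Slc39a9* a zinc transporter.

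**Figure D5:**
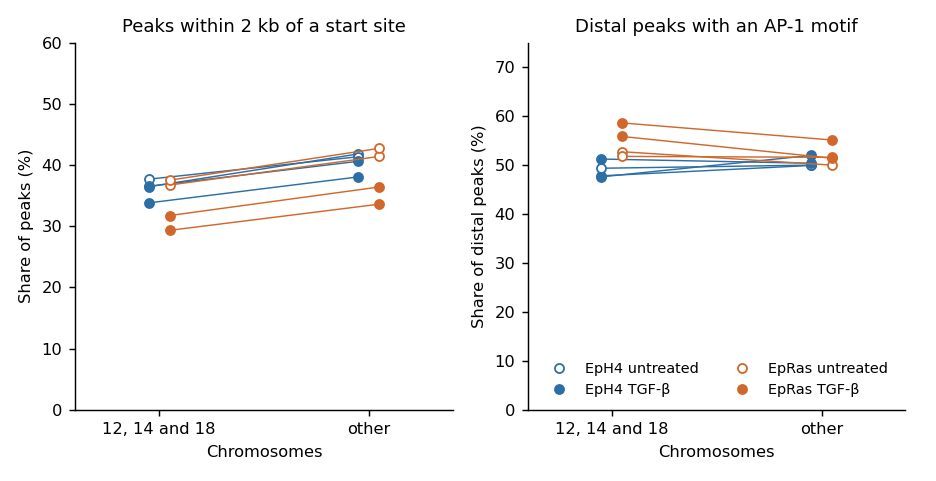
Left, percent of peaks within 2 kb of a TSS, and right, percent of distal peaks with the AP-1 consensus in the central 500 bp, on chromosomes 12, 14 and 18 and on all other chromosomes (x axis). Each line joins the values of one library, blue EpH4 and orange EpRas, open untreated and filled TGF-β-treated. The promoter share was lower on chromosomes 12, 14 and 18 in 8 of 8 libraries, and the AP-1 share in 3 of 8.

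Peaks on these chromosomes were less often at promoters than peaks elsewhere in the same library. The promoter share was 35.0% ± 3.05 on them and 39.5% ± 3.17 on the other chromosomes (SD, n = 8), lower in 8 of 8 libraries (differences of -5.37 to -3.67 points), two-sided exact sign-flip permutation p = 0.0078, the smallest that 8 libraries allow, and adjusted p = 0.0469 over 6 tests. The libraries share one genome with the same start sites, so the p-value measures how alike the libraries were and not the spread between chromosomes. It speaks only of these chromosomes against the pooled rest. Without any single library the exact sign-flip permutation p was 0.0156, the smallest that 128 flips allow. The adjusted p was then 0.0857 to 0.0938, so these runs could not pass. By chromosome the mean share was 33.4% on chromosome 12, 33.6% on chromosome 18 and 38.4% on chromosome 14, ranks 3, 4 and 12 from the bottom of 20, and chromosome 13 was lowest with 32.2%. A low promoter share was neither limited to these chromosomes nor shared by chromosome 14.

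TGF-β-treated libraries had a promoter share of 32.9% ± 3.06 on these chromosomes and untreated ones 37.1% ± 0.60 (SD, n = 4). The values were 36.4% and 37.7% in untreated EpH4, 33.8% and 36.5% in treated EpH4, 36.7% and 37.5% in untreated EpRas, and 29.3% and 31.7% in treated EpRas libraries. Both treated EpRas libraries lay below all others, while 1 treated EpH4 library lay within the untreated range. The difference of -4.24 points had an exact permutation p of 0.0571 and an adjusted p of 0.171, and did not pass. Within EpH4 cells it was -1.90 and within EpRas cells -6.59 points. The other chromosomes moved alike, by -2.25 and -7.06 points. Counting promoters within 1 kb, or taking equal numbers of peaks, gave an unadjusted exact permutation p of 0.0286, with differences of -4.45 and -3.47 points.

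Averaged over the libraries, AP-1 motifs in distal peaks did not differ measurably between these chromosomes and the others. The share of distal peaks with the consensus in the central 500 bp was 51.9% ± 3.85 on these chromosomes and 51.3% ± 1.75 on the others (SD, n = 8), a difference of 0.571 points that ran from -4.38 to 4.45 between libraries, exact sign-flip permutation p = 0.578 and adjusted p = 0.80. The differences were -2.13, -0.64, 0.86 and -4.38 points in EpH4 and 2.74, 0.18, 4.45 and 3.49 points in EpRas libraries (untreated, then treated), so all 4 EpRas libraries and 1 EpH4 library were higher here. This split between the lines was not tested. Between treated and untreated libraries the share was 53.3% ± 4.88 and 50.4% ± 2.25 (SD, n = 4), exact permutation p = 0.371 and adjusted p = 0.743.

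Over merged distal regions the share was 51.2% here and 46.2% elsewhere, and it varied over the call patterns. Among distal regions called in both treated EpRas and in no untreated EpRas library, 142 of 211 (67.3%) held the consensus, against 56.7% for that pattern on the other chromosomes. Among distal regions called in all 8 libraries the order was turned, 33 of 77 (42.9%) against 58.1%. Among distal regions called in all 4 EpRas and in 0 EpH4 libraries it was 39 of 63 (61.9%) against 59.4%, and among those called in at least 1 EpRas and in 0 EpH4 libraries 642 of 1234 (52.0%) against 44.5%. These shares are given as descriptions, since regions of one list are not replicates.

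Within EpRas cells, regions gained under TGF-β outnumbered those lost. On these chromosomes 253 (8.15%, against 7.64% of all regions) were called in both treated and in 0 untreated EpRas libraries, and 20 (0.644%, against 0.927%) showed the reverse. Within EpH4 cells there were 83 (2.67%, against 3.27%) and 47 (1.51%, against 1.68%). Each share was near that of all regions. The treated EpRas lists had 27337 and 16833 peaks and the untreated ones 17210 and 13784. The part of list length in these counts was not tested for the 253.

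Some genes were nearest to several of the gained EpRas regions. *Ccser2* was nearest to 4 of the 253, and *Fos*, *Smad7*, *Flrt2*, *Trib2*, *Zfp608*, *Ccdc71l*, *Kcnrg* and *4930474N05Rik* to 3 each. *Fos* encodes a subunit of AP-1 and *Smad7* the inhibitory Smad that dampens TGF-β signaling. These genes were named after their counts were seen. Of the 253, 177 were called in the treated EpRas libraries alone (5.70% of the 3105, against 4.21%). The top one of chromosome 12 lay 8.79 kb upstream of *Pgf*, the placental growth factor gene, with percentiles of 68.2 and 88.2. That of chromosome 14 was the *Ccser2* site printed above, with 80.9 and 73.3, and that of chromosome 18 lay 29.8 kb upstream of *Gramd3*, with 87.3 and 66.2. The count of 177 was 48 with equal numbers of peaks, and leaving out single libraries gave 183 to 871, the highest without the second treated EpRas library. In that run a call in the first treated EpRas library alone was enough. Leaving out a library loosens the pattern, so this range does not measure stability.

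Across both lines, 4 regions (0.129%, against 0.320%) were called in all 4 treated and in 0 untreated libraries, and 0 (against 0.0188%) the other way. All 4 were on chromosome 18: 153 kb upstream of *Nol4*, 34.0 kb upstream of *Bin1*, an endocytosis adaptor gene, at a noncoding promoter 191 kb upstream of *Zfp608*, and in an intron of *Ctif*, with *Smad7* 159 kb away as the nearest coding TSS. Their mean percentiles were 58.9, 35.2, 15.3 and 54.8, and the first and the second held the AP-1 consensus.

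Genes of 5 lists on these chromosomes were examined with 20 kb on each side, 37 loci in all, of which 25 had a region. The 20 kb margins took in neighbouring genes, so a region counted at a locus may lie at the promoter of another gene. The mean number of called regions was higher in EpRas at 21, higher in EpH4 at 1 and equal at 15. Over all 21755 coding-gene loci it was higher in EpRas at 47.6%, higher in EpH4 at 14.5% and equal at 37.9%, and over the 2058 on these chromosomes at 54.2%, 3.89% and 41.9%. *Cdh2*, which encodes N-cadherin, a mesenchymal adhesion protein, was the only locus without overlap between the lines, against 3.07% of 21755 coding-gene loci with EpRas above and 0.400% with it below. Its EpH4 libraries had 0 regions each, and the EpRas libraries had 2, 1, 2 and 2 out of 5 merged regions. None of the 5 was called in more than 2 EpRas libraries, 4 lay in *Cdh2* introns, and the highest mean percentile among them was 45.0. Treated counts lay above all untreated counts at 0 of the 37 loci, against 0.294% of coding-gene loci, and below them at 0, against 0.0322%.

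Among 8 genes of TGF-β and Smad signaling, 4 had a region. *Ltbp2*, a latent TGF-β binding protein gene, had 2, 2, 4 and 3 regions in EpH4 and 5, 4, 7 and 6 in EpRas libraries (untreated, then treated), which overlapped at 4. Its region called in all 8 libraries lay at the *Npc2* promoter, 0.044 kb from the *Npc2* TSS. *Smad7* was the locus with more in EpH4, 2, 4, 5 and 3 against 3, 2, 4 and 3, and 2 of its 6 regions were called in all 8 libraries. *Tgfb3*, *Bmp4*, *Smad2* and *Smad4* had no region in any list.

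Of 10 genes for EMT, adhesion and matrix, 5 had a region. *Loxl2*, a lysyl oxidase of the extracellular matrix, had 0 in every EpH4 library and 0, 0, 3 and 1 in EpRas libraries. *Zeb1*, a transcriptional repressor of E-cadherin, had 1, 0, 1 and 1 against 1, 1, 2 and 1. *Dsc2*, a desmosomal cadherin gene, had 1 region in all 8 libraries. *Twist1*, *Lox*, *Dsg2*, *Wnt5a* and *Itgb8* had none.

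Of 5 AP-1 and immediate-early genes, 4 had a region. *Fos* had 1, 0, 0 and 0 regions in EpH4 and 2, 1, 3 and 2 in EpRas libraries, overlapping at 1. Its most shared region lay 18.5 kb from the TSS and was called in 1 EpH4 and 4 EpRas libraries. The promoter of *Egr1*, a zinc finger factor induced by growth signals, was called in 4 EpH4 and 3 EpRas libraries. Of the 7 genes of Ras signaling and growth control all had a region. *Sos2*, an exchange factor that loads Ras with GTP, had 0 in EpH4 and 2, 1, 3 and 0 in EpRas libraries. Its regions included the *Vcpkmt* promoter, 0.058 kb from the *Vcpkmt* TSS, and another region nearest to *Vcpkmt*. *Hbegf*, an EGF receptor ligand gene, had 2, 3, 4 and 1 against 2, 4, 4 and 4, and several of its regions were nearest to *Slc4a9*. *Apc*, the Wnt pathway tumor suppressor, had 1, 1, 0 and 0 against 2, 1, 2 and 1. The *Apc* regions included the *Srp19* promoter, 0.055 kb from the *Srp19* TSS.

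Of 7 genes listed as epithelial and mammary factors, 5 had a region, and 7 of the 14 regions of this list were at *Tcf4*. *Tcf4*, a basic helix-loop-helix factor gene, had 2, 3, 4 and 2 regions in EpH4 and 6, 4, 6 and 5 in EpRas libraries. Its promoter regions were found mainly in EpRas cells, the first in 1 EpH4 and 4 EpRas libraries and the second in 0 and 3. *Klf5*, a factor of epithelial growth, had 2, 0, 2 and 1 against 1, 2, 2 and 2. *Foxa1* and *Gata6* had none. Over the 37 loci the promoter was called in all 8 libraries for 0 genes and in none for 25.

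Peaks on these chromosomes also ranked lower in their lists and were shared less between replicates than peaks elsewhere. The median score percentile was 34.4, 39.9, 35.1 and 37.2 in EpH4 and 40.2, 41.8, 44.1 and 44.9 in EpRas libraries, and 50.6 to 51.0 on the other autosomes. Of the peaks on chromosomes 12, 14 and 18, 60.9% and 53.1% overlapped a peak of the other replicate in untreated EpH4, 37.3% and 79.6% in treated EpH4, 55.2% and 73.9% in untreated EpRas, and 48.2% and 87.9% in treated EpRas libraries. On the remaining chromosomes the values were 69.4%, 66.4%, 51.7% and 84.7% in EpH4 and 62.9%, 78.0%, 55.8% and 89.7% in EpRas libraries. Each of the 8 libraries was lower on these chromosomes.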

How the data were processed

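FAIRE-seq of 8 libraries was analysed from 1 deposited peak list per library. The authors aligned reads with Bowtie2 (build mm10) and used MACS2 2.0.9 as peak caller. Each line of the deposited lists holds a position and a score whose unit was not stated, and the score was used only as a rank. A control sample and the treatment of duplicates are not given in the sources used here. The lists hold no reads, so depth is unknown, and a site absent from a list may be open.

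Peaks sharing at least 1 bp were merged, and a library called a region if a peak of it overlapped. GRCm38.p6 and GENCODE vM21 basic (77198 start sites) served for sequence, known bases and genes; 0 of 129466 peaks passed a chromosome end. Bins of 10 Mb with under 1 Mb of known sequence were left out. Repeats were the soft-masked bases. AP-1 was searched on both strands. Groups came from the labels. Means were compared by exact permutation (70 assignments), by permuting line labels within treatment (36) or by sign flips over libraries (256), two-sided, with Benjamini-Hochberg adjustment, in python 3.11.15 with numpy 2.4.6, pandas 2.3.3 and scipy 1.17.1, tested on simulated data.

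Named regions were, per chromosome, by mean score percentile, the 3 highest called in all EpRas and in no EpH4 library, 2 of the reverse, 2 called in all 8 and 1 in both treated EpRas libraries alone. Loci were 37 genes in 5 lists. The chromosomes, regions and lists were chosen with earlier results of these data known. Alternatives were list length, score limit, overlap, promoter distance, motif window, bin size, a block, and each library left out. Not every gene of the lists is named here.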

Additional observations from a re-analysis of the deposited data

How the results depend on the processing

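Of 180 recomputed values, 142 kept their direction and side of the threshold or stayed within the spread. The promoter share of chromosomes 12, 14 and 18 was lower than elsewhere under every alternative run, at -4.65 to -4.41 points without single libraries. There the unadjusted exact permutation p was 0.0156, the smallest possible with 128 flips, so the adjusted p (0.0857 to 0.0938) could not pass. Depth, which is unknown, limits every statement on absent peaks.

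With equal numbers of peaks, the TGF-β difference on chromosome 14 was -0.0970 points, the AP-1 difference from other chromosomes -0.0879 points, the TGF-β promoter difference -3.47 points (past the threshold), and the regions called in all EpRas and no EpH4 libraries, in both treated EpRas libraries alone and in all 8 libraries were 29, 48 and 68. With scores at or above the median, the TGF-β difference on chromosome 12 was 0.200 points, the AP-1 difference -4.75 points, the difference of EpRas from EpH4 shares 3.51 points, and the regions of EpRas, of EpH4 and of all 8 libraries were 53, 3 and 21. With 1 kb promoters the TGF-β promoter difference was -4.45 points (past the threshold), and with 200 bp motif windows the AP-1 difference was -0.199 points. Over bins, r was 0.50 with 20 Mb bins and 0.45 with all annotated genes. The cause of these shifts was not tested, except that fewer peaks were used in the first and the second.

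Without single libraries, the TGF-β share difference ran from -0.487 to 0.989 points, that of chromosome 12 from -0.396 to 0.324, of chromosome 14 from -0.170 to 0.292 and of chromosome 18 from 0.0452 to 0.373. The TGF-β promoter difference ran from -5.47 to -3.07 points and was past the threshold without the second treated EpH4 library. The difference of TGF-β effects between lines ran from 0.185 to 1.5, the TGF-β AP-1 difference from 1.14 to 4.82, the AP-1 difference from other chromosomes from 0.0178 to 1.28 and the line difference of shares from 2.60 to 3.06 points. Counts ran from 88 to 172 (all EpRas, no EpH4), 5 to 12 (all EpH4, no EpRas), 183 to 871 (both treated EpRas alone) and 153 to 214 (all 8). Fewer libraries had to agree in these runs, so the ranges of the counts do not measure stability.

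The replicate block (treated minus untreated within line and number, 16 sign flips, smallest p 0.125) left the TGF-β differences as they were, 0.222 points for the 3 chromosomes, with exact permutation p-values of 0.625 for the share, 0.125 for promoters and 0.25 for AP-1. Deviations of same-numbered libraries over 20 chromosomes correlated at -0.445 in EpH4 and 0.848 in EpRas cells. These values are opposite in sign and cannot decide whether the numbers pair the libraries. With the EpH4 numbers crossed, chosen after seeing the data, 0 of the TGF-β differences passed, and 16 sign flips do not allow any to pass.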
